A study of Mus musculus with 6 samples.

Results

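The replication-dependent histone genes of the mouse lie in 4 clusters, and their GENCODE M21 names carry the cluster number and the class of the protein, as in Hist1h2bm. All protein-coding genes named in this way were taken as members, whatever their counts. The rule gave 67 genes among 55450 genes counted, of which 21951 were protein-coding. The members code for the linker histone H1 (6 genes) and for the core histones H2A (18 genes), H2B (18 genes), H3 (12 genes) and H4 (13 genes). In GRCm38, 54 of them lie in the Hist1 cluster on chromosome 13 between positions 21715763 and 23934851. Another 10 make up the Hist2 cluster on chromosome 3 between 96219865 and 96270132, Hist3h2ba and Hist3h2a lie on chromosome 11, and Hist4h4 lies alone on chromosome 6.

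RNA-Seq was performed on hepatocytes isolated by 2-step collagenase perfusion from adult male mice on a normal diet, of strain C57BL/6 in the labels and C57BL/6J in the study's methods. Their age was 10 to 12 weeks in the labels, and the methods state a younger one. The 0hr group came from undamaged liver, with no sham operation mentioned, and the 48hr group came from liver 48 hours after partial hepatectomy (PHx), an operation that removes part of the liver and makes the remaining hepatocytes enter the cell cycle. No transgene or drug is named for either group, and each had 3 libraries. The libraries of a time point came from separate hepatocyte preparations of different mice, used as biological replicates in the study, although the labels do not name the animals. Gene counts per library ranged from 31419443 to 36346220.

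Histone proteins wrap DNA into nucleosomes, and a cell that copies its genome must make a full new set of them within S phase. The clustered genes serve this demand. They have no introns in their classical form, and their mRNAs end in a conserved stem-loop in place of a poly(A) tail. The stem-loop is bound by SLBP, which carries the mRNA through 3′ end cleavage, export and translation, and the mRNA is degraded when DNA synthesis stops. Some clustered genes can also use a poly(A) site downstream of the stem-loop, and such transcripts occur in cells that do not divide. In the adult liver nearly all hepatocytes are quiescent, and PHx is the standard setting in which they return to the cell cycle.

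The stem-loop is the feature by which these mRNAs are recognized, so it is shown for the members on which the results turn. The following sites were read from the annotated transcripts, 5′ to 3′ as DNA letters, with the hairpin (6 bases of stem, 4 of loop and 6 of stem) in capitals and up to 5 bases on each side.
Hist1h2bm: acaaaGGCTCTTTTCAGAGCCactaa
Hist1h3a: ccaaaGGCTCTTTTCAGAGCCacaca
Hist1h2ab: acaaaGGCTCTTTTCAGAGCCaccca
Hist1h1c: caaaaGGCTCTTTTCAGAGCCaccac
Hist1h3c: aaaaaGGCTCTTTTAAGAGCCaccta
Hist2h2ac: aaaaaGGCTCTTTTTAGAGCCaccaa
Hist1h4d: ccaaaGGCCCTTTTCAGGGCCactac
Hist1h4j: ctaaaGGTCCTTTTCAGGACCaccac
Hist2h4: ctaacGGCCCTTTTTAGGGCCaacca

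A hairpin of 1 of these 6 kinds was found after the stop codon in 44 of the 67 members (65.7%). For the other protein-coding genes the rule was wider, any stem starting GG with any loop starting TT, anywhere in a transcript. By that rule 0.489% of them had a match, so the 2 shares were not counted alike. In the members the hairpin began 21 to 58 bases after the stop codon. The most frequent kind, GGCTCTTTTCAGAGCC, stood in 26 members of the H1, H2A, H2B and H3 classes. All 11 H4 genes with a hairpin had another stem, 7 of them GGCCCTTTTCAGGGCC, 2 of them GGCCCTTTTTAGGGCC and 2 of them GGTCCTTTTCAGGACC. Of the 23 members in which none was found, 13 have an annotated transcript that ends at the stop codon, ahead of where the hairpin would lie.

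Regenerating hepatocytes held more RNA of nearly every histone cluster gene that could be tested. With edgeR's quasi-likelihood test and a Benjamini-Hochberg adjusted p under 0.05, 48 of the 49 tested members were higher at 48 hours, none was lower, and Hist1h2bc was not called. Over all 17037 genes tested, 21.4% were higher and 19.3% were lower by the same rule. For 48 members all 48hr libraries lay above all 0hr libraries, which was so for 27.8% of all genes tested. The median log2 fold change of the tested members was 4.15, with a range of 0.42 to 6.83, and that of all genes tested was -0.0033. These counts and the median cover only members that reached 10 counts in 3 libraries, and 27 of the 49 also had 10 or more counts in every 0hr library. The others passed the filter through the 48hr libraries, where they are high, so the median leans on members that were low at 0 hours. Of the 18 members not tested, 10 were at 0 in all 6 libraries and 8 had a few counts.

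**Figure D1:**
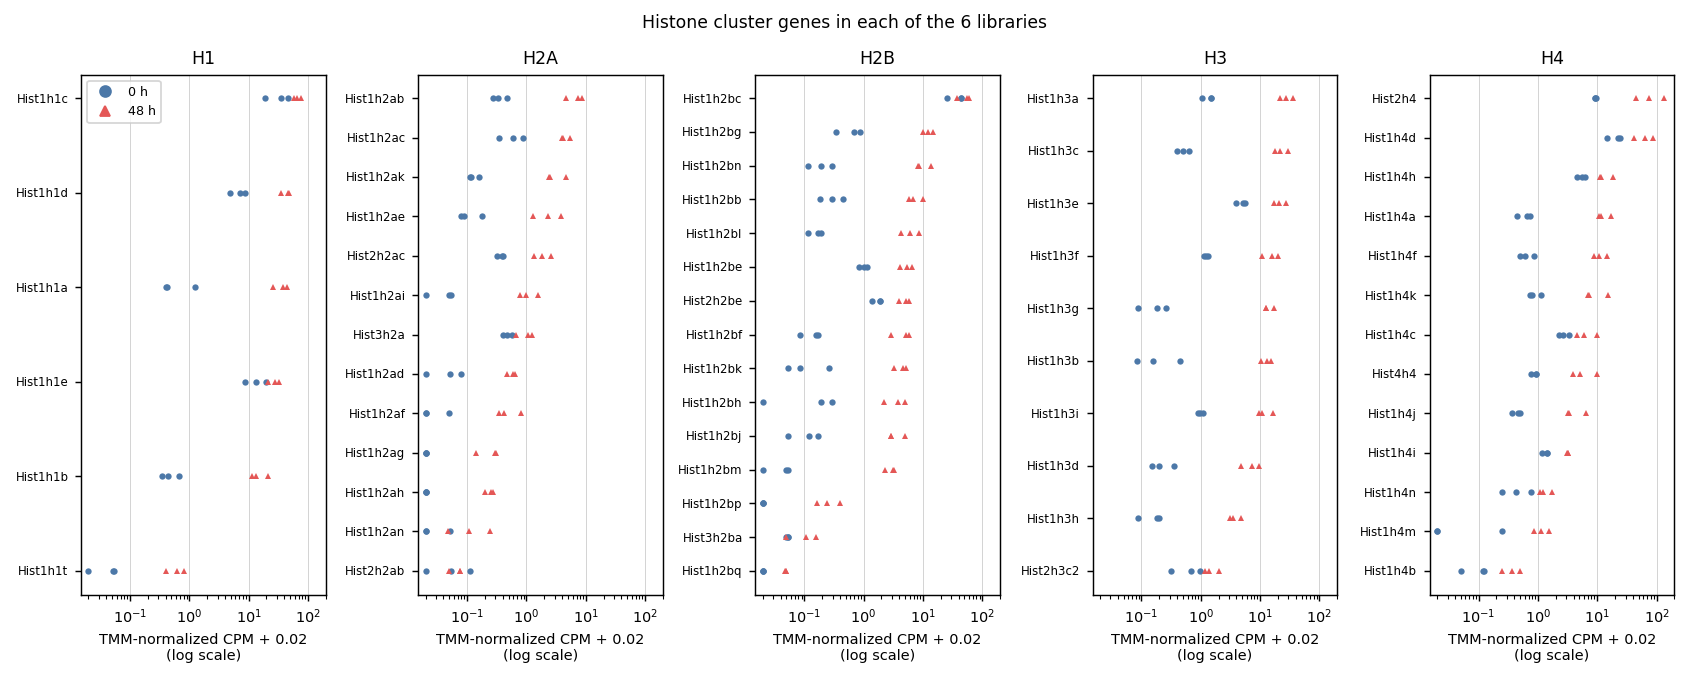
TMM-normalized level (CPM plus 0.02, log scale) of each member with any count, by histone class, with circles for the 3 libraries at 0 hours and triangles for the 3 at 48 hours. The triangles lie to the right of the circles for all but 1 of the 49 tested members, and the distance is shortest for the genes that were already high at 0 hours, such as Hist1h2bc and Hist1h1c.

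Summed over the 67 members, the normalized level (CPM, each gene's counts scaled by TMM to a common library total) was 185, 107 and 166 CPM in the 0hr libraries and 523, 890 and 651 CPM in the 48hr libraries. All 48hr libraries lay above all 0hr libraries. The means were 153 ± 40.9 and 688 ± 187 CPM (SD, n = 3), a 4.50-fold difference. As a share of all gene counts the clustered genes rose from 0.0142% to 0.0742%. The 5 members with the highest CPM at 0 hours, which were Hist1h1c, Hist1h2bc, Hist1h4d, Hist1h1e and Hist2h4, had a summed mean of 115 CPM at 0 hours and 292 CPM at 48 hours, a 2.54-fold difference. The other 62 members together went from 38.2 to 396 CPM, a 10.4-fold difference. The summed increase was therefore smaller than that of most single members, and a few genes took most of the member reads at 0 hours. In bulk RNA, more cells expressing a gene and more RNA per cell cannot be told apart.

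**Figure D2:**
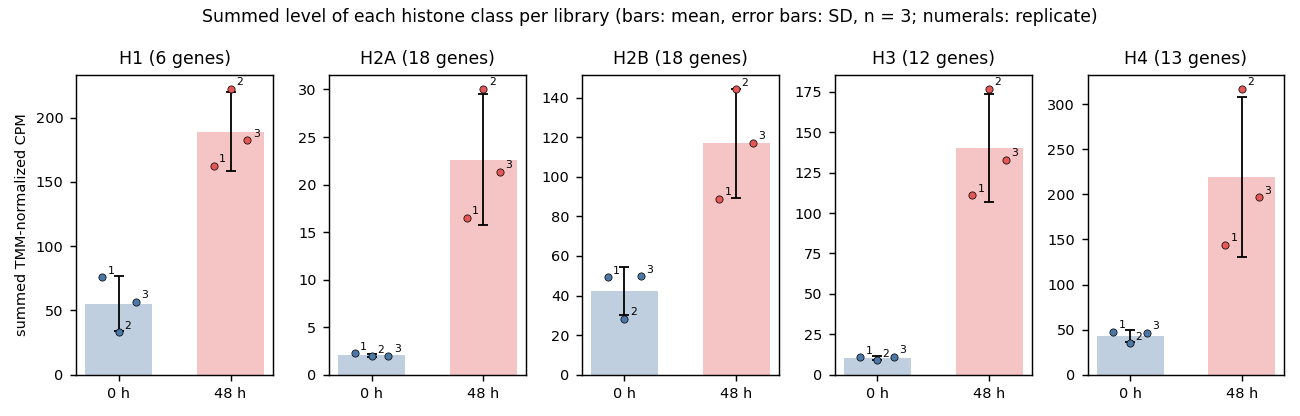
Summed TMM-normalized CPM of each histone class in every library (points, with the replicate number), with bars for the mean and error bars for the SD (n = 3). All 48hr libraries lie above all 0hr libraries in each of the 5 classes, and replicate 2 is the highest of the 48hr libraries in each.

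As a ratio of summed levels the difference was largest for H3 and H2A and smallest for H2B, while in CPM it was largest for H4 and smallest for H2A. The H3 genes together measured 10.7, 8.83 and 11.1 CPM at 0 hours and 111, 177 and 133 CPM at 48 hours, a 13.7-fold difference of the means. The H2A genes measured 2.25, 1.93 and 1.99 CPM at 0 hours and 16.5, 30.1 and 21.3 CPM at 48 hours, or 11.0-fold. For H4 the difference was 5.09-fold (means of 43.0 and 219 CPM), for H1 3.43-fold (55.2 and 189 CPM) and for H2B 2.76-fold (42.4 and 117 CPM). The median log2 fold changes over tested genes were 4.93 for H2B, 4.57 for H3, 4.33 for H2A, 3.61 for H1 and 3.02 for H4. Hist1h2bc alone made up 89.5% ± 0.795 (SD, n = 3) of the H2B counts at 0 hours. These medians cover only members that passed the count filter, and 10 or more counts in every 0hr library were found for 4 of 12 tested H2B genes, 5 of 10 H3, 3 of 9 H2A, 5 of 6 H1 and 10 of 12 H4. No test between the classes was made, and no order of the classes can be read from the medians.

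The linker histone H1 binds the DNA that enters and leaves the nucleosome, and its genes code for subtypes that differ in when they are made. Hist1h1a codes for H1.1, Hist1h1b for H1.5, Hist1h1c for H1.2, Hist1h1d for H1.3, Hist1h1e for H1.4 and Hist1h1t for a testis subtype. All 6 were tested and all 6 rose. Hist1h1a measured 0.408, 0.387 and 1.23 CPM at 0 hours and 26.2, 44.9 and 38.2 CPM at 48 hours, a log2 fold change of 5.72 (SE 0.36, edgeR adjusted p = 1.03e-06), or 6.51 without 0hr replicate 3. Hist1h1b went from 0.647, 0.322 and 0.422 CPM to 13.1, 20.9 and 11.3 CPM, a log2 fold change of 5.02 (SE 0.32, edgeR adjusted p = 1.16e-06). Both were close to absent before surgery and no library of one time point overlapped the other. Hist1h1d, at 8.75, 4.80 and 7.17 CPM before surgery, reached 35.1, 48.1 and 47.0 CPM (log2 fold change 2.65, SE 0.21).

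Hist1h1c and Hist1h1e were the H1 genes with a sizeable level in resting hepatocytes, and they rose least. Hist1h1c measured 46.4, 18.5 and 34.5 CPM at 0 hours and 66.7, 75.2 and 57.9 CPM at 48 hours, a log2 fold change of 1.01 (SE 0.26, edgeR adjusted p = 0.0108). Hist1h1e measured 19.6, 8.83 and 13.6 CPM and then 21.1, 32.5 and 27.4 CPM, a log2 fold change of 0.95 (SE 0.25, edgeR adjusted p = 0.0128). The highest 0hr library of Hist1h1e lay just under the lowest 48hr library, and without 48hr replicate 2 its call was lost (edgeR adjusted p = 0.0534). Hist1h1e shares 25.7% of its exon bases with Hist1h2be on the same strand, and how reads in that stretch were assigned is not given in the sources used here. Per kilobase of annotated exon, Hist1h1c made up 68.0% ± 2.14 (SD, n = 3) of the H1 level at 0 hours and 32.6% ± 4.86 at 48 hours. Over the same interval Hist1h1a went from 3.11% ± 1.94 to 36.9% ± 4.84 and Hist1h1b from 2.07% ± 0.322 to 15.1% ± 2.70. The share of Hist1h1d on this scale is held down by its annotated exon length of 7425 bases. Hist1h1t had 1, 1 and 0 counts at 0 hours and 13, 28 and 21 counts at 48 hours, a ratio of 27.8 with a 95% counting interval of 7.37 to 235.

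Genes for H2A had low counts throughout. Each of the 18 also has a gene annotated on the opposite strand across some or all of its exon bases. The share runs from 5.56% in Hist1h2ac to 100% in Hist2h2aa1 and Hist2h2aa2. In the other classes only Hist1h4b, Hist2h3b and Hist2h2bb have such an overlap. How reads there were assigned is not given, and the part of this in the low H2A counts was not tested. H2A pairs with H2B, and the pair of dimers is the part of the nucleosome that exchanges most readily. Of 18 H2A genes 9 were tested and all 9 rose. Hist1h2ab, the H2A gene with the highest level per kilobase, measured 0.306, 0.258 and 0.452 CPM at 0 hours and 4.60, 8.78 and 7.43 CPM at 48 hours, a log2 fold change of 4.33 (SE 0.33, edgeR adjusted p = 4.30e-06). Hist1h2ak went from 0.136, 0.0967 and 0.0903 CPM to 2.46, 4.64 and 2.37 CPM, a log2 fold change of 4.84 (SE 0.43). In Hist2h2ac the change was smaller, from 0.374, 0.387 and 0.301 CPM to 1.34, 2.57 and 1.83 CPM (log2 fold change 2.43, SE 0.33). None of these 3 genes overlapped between the time points. Hist3h2a, the H2A gene with the smallest rise, had 13, 12 and 18 counts at 0 hours and 22, 43 and 36 counts at 48 hours (log2 fold change 1.07, SE 0.33, edgeR adjusted p = 0.0262), and 33.0% of its exon bases are shared with Trim17. Its call was lost without 0hr replicate 1 or 2 and without 48hr replicate 2 or 3, with edgeR adjusted p from 0.0658 to 0.113.

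Several H2A genes were near the limit of detection before surgery. Hist1h2ag and Hist1h2ah had no count in any 0hr library and 4 to 10 counts in each 48hr library, so that against a floor of 3 counts per library they were at least 2.37-fold and at least 2.28-fold higher. Hist1h2ad had 3 counts over the 0hr libraries and 57 over the 48hr libraries (ratio 17.0, counting interval 5.54 to 85.0), Hist1h2af had 1 and 53 (ratio 47.5, interval 8.16 to 1911), and Hist1h2ai had 2 and 114 (ratio 51.1, interval 13.8 to 427). These intervals cover counting error only. Of the 5 H2A genes at 0 everywhere, Hist2h2aa1 and Hist2h2aa2 have no stretch of 50 bases that is theirs alone, and Gm20632, an antisense RNA annotated across all exon bases of Hist2h2aa2, had 68 to 129 counts in every library. A 0 for such a gene therefore does not show that it was silent. Hist1h2aa, whose product is made in the testis, had 76.2% of its stretches to itself and no count in any library.

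The H2B genes held the member with the highest fitted change and the only tested member that was not called. The first of these rests on 2 counts at 0 hours, and its place above Hist1h3g (6.45) is within the standard errors and was passed by Hist1h4m without 0hr replicate 2. Hist1h2bm had 1, 0 and 1 counts at 0 hours and 78, 114 and 108 counts at 48 hours, a ratio of 134 with a 95% counting interval of 36.9 to 1115, and a fitted log2 fold change of 6.83 (SE 0.47, edgeR adjusted p = 2.00e-06). Hist1h2bn measured 0.170, 0.0967 and 0.271 CPM at 0 hours and 8.17, 13.8 and 8.60 CPM at 48 hours (log2 fold change 5.78, SE 0.35, edgeR adjusted p = 8.57e-07). Both went from single-digit counts in each 0hr library to 78 or more in each 48hr library. Hist1h2bg rose from 0.681, 0.322 and 0.843 CPM to 10.2, 14.6 and 12.0 CPM (log2 fold change 4.30, SE 0.28).

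Hist1h2bc behaved differently from its class. Its level was 44.4, 25.1 and 44.3 CPM at 0 hours and 37.2, 60.3 and 54.5 CPM at 48 hours, a log2 fold change of 0.42 (SE 0.23, edgeR adjusted p = 0.169). The lowest 48hr library lay under 2 of the 0hr libraries, so the groups overlapped. It was the member with the highest level per kilobase at 0 hours, at 32.8 ± 9.60 CPM per kilobase (SD, n = 3), and 43.8 ± 10.4 at 48 hours. As a share of the H2B level per kilobase it went from 89.0% ± 1.64 to 27.5% ± 2.24. The remaining 11 tested H2B genes all rose, the least of them being Hist2h2be, which measured 1.91, 1.35 and 1.84 CPM at 0 hours and 5.26, 5.87 and 3.97 CPM at 48 hours (log2 fold change 1.56, SE 0.23). Scaling by library size alone put Hist1h2bc past the threshold, at a log2 fold change of 0.63, while it moved the median of all genes to 0.20. It also passed without the filter on low counts, at 0.40.

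H3 and H4 form the tetramer at the centre of the nucleosome and are the first histones laid down on new DNA. The clustered H3 genes code for H3.1 and H3.2, the forms deposited at replication. Of the 12 genes 10 were tested and all 10 rose. Hist1h3a, the highest of the class per kilobase at 48 hours (52.8 ± 13.1 CPM per kilobase, SD, n = 3) but below Hist1h3e at 0 hours (2.48 ± 0.495 against 5.85 ± 1.06), had 1.02, 1.48 and 1.48 CPM at 0 hours and 21.7, 35.6 and 27.3 CPM at 48 hours (log2 fold change 4.40, SE 0.23, edgeR adjusted p = 2.81e-07). Hist1h3c went from 0.374, 0.483 and 0.602 CPM to 17.8, 29.2 and 21.7 CPM (log2 fold change 5.54, SE 0.26, edgeR adjusted p = 1.26e-07). Between the highest 0hr and the lowest 48hr library lay a gap of more than 10 times in both genes.

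Hist1h3g and Hist1h3b had the largest increases of the class, although both were low at first. Hist1h3g had 2, 5 and 8 counts at 0 hours and 431, 621 and 441 counts at 48 hours (log2 fold change 6.45, SE 0.30), and Hist1h3b had 4, 2 and 14 counts and then 350, 540 and 460 counts (log2 fold change 5.90, SE 0.38, or 6.96 without 0hr replicate 3). Hist1h3i, from 0.953, 0.870 and 1.08 CPM to 10.8, 16.2 and 9.62 CPM, rose by 3.65 on the log2 scale (SE 0.24). Hist1h3e held 41.2% ± 5.36 of the H3 level per kilobase at 0 hours and 11.7% ± 0.240 at 48 hours, while its own level went from 5.62, 3.90 and 5.15 CPM to 17.0, 27.2 and 20.6 CPM (log2 fold change 2.15, SE 0.20). At the low end, Hist2h3c2 had 28, 9 and 22 counts at 0 hours and 67, 42 and 47 counts at 48 hours (log2 fold change 1.24, SE 0.39, edgeR adjusted p = 0.0273), and the call was lost without 0hr replicate 2 or 3 and without 48hr replicate 1 (adjusted p from 0.0642 to 0.101). It was the only tested member in which 48hr replicate 2 was not the highest 48hr library. Hist2h3b and Hist2h3c1 had no count in any library and, like the H2A genes named above, no stretch of sequence of their own.

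All 12 tested H4 genes rose, and several of them had a clear level in resting hepatocytes. Hist1h4d measured 23.9, 14.5 and 22.6 CPM at 0 hours and 42.2, 86.8 and 63.5 CPM at 48 hours (log2 fold change 1.66, SE 0.25, edgeR adjusted p = 0.000525). Hist2h4 was even among the 0hr libraries, at 9.67, 9.06 and 9.10 CPM, and uneven among the 48hr libraries, at 44.6, 131 and 74.2 CPM (log2 fold change 3.17, SE 0.33, edgeR adjusted p = 3.83e-05). Its value in 48hr replicate 2 lay well above both other 48hr libraries. Hist1h4h went from 6.20, 4.48 and 5.42 CPM to 11.7, 18.7 and 11.2 CPM (log2 fold change 1.37, SE 0.22). Hist1h4a went from 0.647, 0.419 and 0.723 CPM to 11.5, 17.1 and 10.6 CPM (log2 fold change 4.44, SE 0.27). Hist1h4m had 0, 7 and 0 counts at 0 hours and 38, 55 and 30 counts at 48 hours, and its log2 fold change of 3.91 (SE 0.73) became 8.30 without 0hr replicate 2, the 1 library with counts at 0 hours. Hist4h4, alone on its chromosome, measured 0.919, 0.741 and 0.903 CPM at 0 hours and 3.95, 9.79 and 5.03 CPM at 48 hours (log2 fold change 2.87, SE 0.35). The H4 proteins encoded by these genes are the same, so the genes differ in where the reads come from and not in the core histone they make.

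The members were also grouped by their annotated 3′ ends, without a test between the groups. In 18 members the annotated transcript goes on for 300 bases or more after the stem-loop, and of these 17 were tested and all 17 rose, with a median log2 fold change of 2.47 and a range of 0.95 to 5.06. In 26 members it ends within 300 bases of the stem-loop, and the 18 tested all rose, with a median of 4.48. The 13 whose annotation stops at the stop codon had 8 tested, all higher, with a median of 4.93. Among the 10 with none of these features 6 were tested and 5 rose, with a median of 4.79. The members with a long end supplied 64.0% ± 2.71 (SD, n = 3) of the summed member CPM at 0 hours and 52.9% ± 1.17 at 48 hours. Those ending within 300 bases went from 7.25% ± 1.32 to 20.5% ± 0.473 of the sum. Longer annotated ends also went with higher levels at 0 hours, 14 of the 17 tested having 10 or more counts in every 0hr library against 6 of 18 among those that end within 300 bases. The others passed the count filter through the 48hr libraries, so the medians of these groups do not show a difference between them. Which 3′ end the counted reads came from was not tested.

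**Figure D3:**
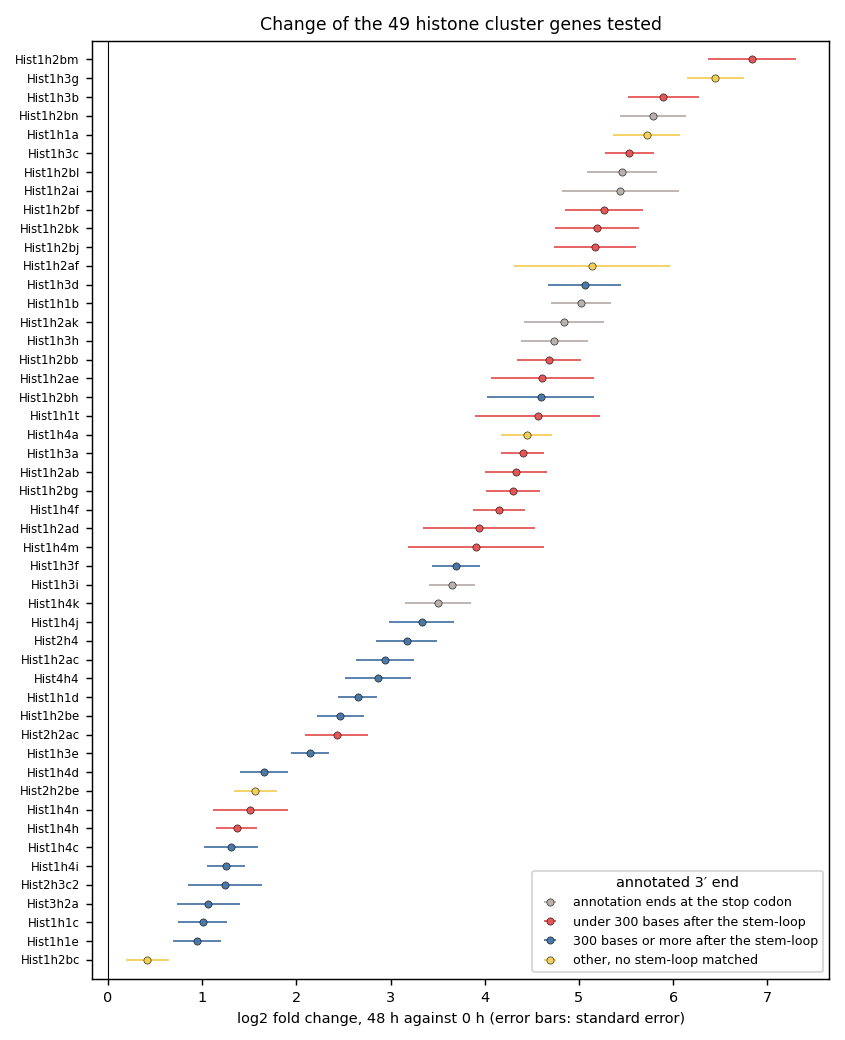
Log2 fold change (48 hours against 0 hours) of each of the 49 tested members with its standard error, coloured by the annotated 3′ end. Members whose transcript is annotated for 300 bases or more after the stem-loop (blue) lie mostly in the lower part, with a median of 2.47, and those that end within 300 bases (red) have a median of 4.48.

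The promoters also set the classes apart by sequence. RefSeq promoters (GRCm38.p6) from 250 bases before to 50 bases after the annotated start were matched for 61 of the 67 members and searched on both strands. The TATA box letters TATAAA were found in 57.4% of member promoters and in 14.2% of all 27025 promoters. The CCAAT letters were found in 85.2% against 37.9%, in every one of the H1, H2A, H2B and H3 promoters but in only 3 of 12 H4 promoters. The octamer ATTTGCAT was found in 13 member promoters (21.3%), all of them H2A (7 of 17) or H2B (6 of 16), against 1.75% of all promoters. For 3 genes, the 150 bases before the start are shown 5′ to 3′ in the direction of the gene, with these 3 motifs, on either strand, in capitals. Hist1h2bg lies on the plus strand (chr13:23571250-23571399), as does Hist1h4d (chr13:23581418-23581567), and Hist1h4f lies on the minus strand (chr13:23551669-23551818).
Hist1h2bg: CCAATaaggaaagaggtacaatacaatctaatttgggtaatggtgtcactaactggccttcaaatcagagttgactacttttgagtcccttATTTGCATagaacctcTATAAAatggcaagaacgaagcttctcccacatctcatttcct
Hist1h4d: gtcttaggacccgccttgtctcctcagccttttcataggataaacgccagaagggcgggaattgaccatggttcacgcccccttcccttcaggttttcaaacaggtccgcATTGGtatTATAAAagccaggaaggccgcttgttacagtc
Hist1h4f: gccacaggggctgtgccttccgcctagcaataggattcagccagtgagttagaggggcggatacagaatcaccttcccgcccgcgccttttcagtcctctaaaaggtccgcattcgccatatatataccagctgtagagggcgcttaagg

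Hist1h2bg, with all 3 motifs, rose by 4.30 on the log2 scale, Hist1h4d, with 2 of them, by 1.66, and Hist1h4f, with none in the stretch shown but counted among the TATA box promoters for a match elsewhere in the 300 bases searched, by 4.15. Hist1h4f measured 0.579, 0.483 and 0.843 CPM at 0 hours and 8.85, 14.7 and 10.7 CPM at 48 hours, and its change and that of Hist1h2bg (SE 0.27 and 0.28) differed by less than either SE. A match is a description of the letters and not of a bound factor.

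H2A and H2B genes often stand head to head with a shared stretch between their starts. There were 12 such pairs, with 176 to 306 bases between the starts, and both genes were tested in 6 of them. In 5 of the 6 pairs both genes rose. Hist1h2ai and Hist1h2bl, 279 bases apart, had log2 fold changes of 5.44 and 5.45, and Hist1h2ae and Hist1h2bg, 176 bases apart, had 4.61 and 4.30. The other 3 pairs lay further from each other, with 4.84 for Hist1h2ak and 5.78 for Hist1h2bn, 3.94 for Hist1h2ad (4.75 without 0hr replicate 3) and 5.27 for Hist1h2bf, and 2.43 for Hist2h2ac and 1.56 for Hist2h2be. The pair of Hist1h2ac and Hist1h2bc, 251 bases apart, was the exception. Hist1h2ac measured 0.851, 0.580 and 0.331 CPM at 0 hours and 4.04, 5.37 and 4.03 CPM at 48 hours, a log2 fold change of 2.94 (SE 0.31), while Hist1h2bc beside it was not called.

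Many members share sequence with their neighbours. In 34 of the 67, less than 50% of the 50-base stretches occur in no other gene, and 8 of the 10 members at 0 everywhere are among them. Of these 34, 20 were tested and all 20 rose, with a median log2 fold change of 4.79, against 28 of 29 and a median of 3.33 for members with 50% or more. Most of these 20 passed the count filter through the 48hr libraries, such as Hist1h2ai with 1, 0 and 1 counts at 0 hours. The counts and medians therefore do not show a difference between these groups. In 4 tested members every stretch was unique, namely Hist1h1a, Hist1h1b, Hist1h1t and Hist2h2be, and all 4 rose. The files list 0 reads under multiple alignment, and how such reads were treated before counting is not given in the sources used here. The levels of members with little unique sequence are therefore uncertain.

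The libraries of a time point were not alike for these genes. Replicate 2 was the highest of the 48hr libraries in 48 of the 49 tested members, whereas it was the highest in 30.9% of all genes tested. Replicate 1 was the lowest in 33 of the 49. The summed member level of replicate 2 was 1.70 times that of replicate 1. The 0hr libraries were spread as widely, their highest sum being 1.73 times their lowest, and there replicate 2 was the lowest library in 33 of the 49 members. For the lowest library the share over all genes tested was not computed. These counts of lowest libraries are therefore not read as a trait of the members. Replicate 2 was the highest in the sums of some other lists, by different margins, and the lowest in the hepatocyte markers (71729, 62561 and 63924 CPM) and the cholangiocyte markers (24.1, 16.3 and 26.0 CPM). The chaperone genes listed further on summed to 1497, 1530 and 1496 CPM in the 3 libraries, and the replication-independent histone genes to 539, 614 and 463 CPM. The Kupffer cell markers summed to 96.2, 119 and 106 CPM and the endothelial markers to 158, 174 and 165 CPM. For small RNAs without a poly(A) tail the sums were 1663, 2227 and 1677 CPM over the 13 genes matched, nearly all of it the 7SK RNA Rn7sk. At 0 hours this sum was 3070 to 3206 CPM, again nearly all Rn7sk. Of the 7 such RNAs tested 4 fell and none rose, where 19.3% of all genes tested were lower and 21.4% higher. Among the 4 was Rn7sk, with 2998, 3142 and 3150 CPM at 0 hours and 1623, 2179 and 1634 CPM at 48 hours (log2 fold change -0.77, SE 0.16, edgeR adjusted p = 0.00375). The labels name total RNA and a standard library protocol and do not say whether poly(A) selection or removal of ribosomal RNA was used. What part the library preparation has in the levels of mRNAs without a poly(A) tail was not tested.

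**Figure D4:**
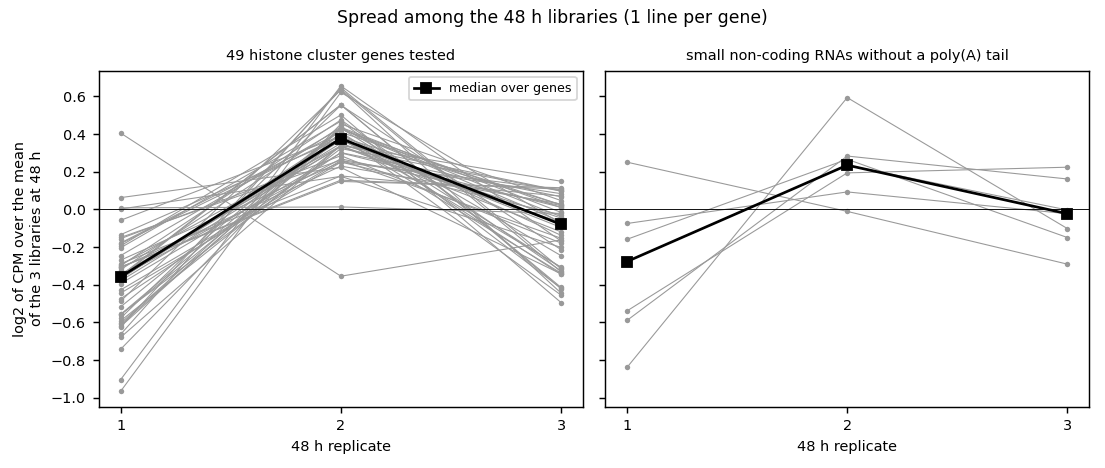
Level of each gene in the 3 libraries at 48 hours, as the log2 of its CPM over the mean of the 3, for the 49 tested histone cluster genes (left) and the 7 tested small RNAs without a poly(A) tail (right), with 1 line per gene and the median in black. Replicate 2 is the highest for 48 of the 49 histone genes, and the median of the small RNAs follows the same order.

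Histone genes outside the clusters code for variant histones. Most give polyadenylated mRNAs, and several of their proteins are laid down outside replication, as H3.3 is. Of 11 such genes tested 5 rose, none fell, and the median log2 fold change was 0.53. The genes for H3.3, the replacement form of H3, were not called. H3f3a measured 25.1, 17.6 and 23.0 CPM at 0 hours and 22.8, 26.7 and 23.0 CPM at 48 hours (log2 fold change 0.14, SE 0.14, edgeR adjusted p = 0.456). H3f3b measured 147, 105 and 130 CPM and then 167, 198 and 138 CPM (log2 fold change 0.40, SE 0.16, edgeR adjusted p = 0.0747), and it passed with library size scaling (0.60), without the filter on low counts (0.38) and without 48hr replicate 3 (0.51). H1f0, the linker histone of differentiated cells, had a log2 fold change of 0.20 (SE 0.18), and the macroH2A gene H2afy one of 0.07 (SE 0.10), and neither was called. H2afj (0.33) and the second macroH2A gene H2afy2 (1.19, SE 0.58, at under 1 CPM) were not called either.

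The 5 that rose were H2afx, H2afz, H2afv, H1fx and Cenpa. H2afx, whose product marks DNA breaks and whose mRNA is known to use the stem-loop end as well as a poly(A) end, went from 8.24, 9.73 and 9.10 CPM to 75.5, 93.0 and 56.5 CPM (log2 fold change 3.05, SE 0.18, edgeR adjusted p = 6.51e-07). H2afz, for the H2A.Z form found at promoters, went from 11.3, 12.9 and 15.6 CPM to 58.9, 57.5 and 48.2 CPM (log2 fold change 2.05, SE 0.14). Cenpa, the H3 form of centromeres, rose from 4.22, 5.74 and 4.88 CPM to 36.3, 37.4 and 23.8 CPM (log2 fold change 2.72, SE 0.19). These 3 had no overlap between time points, and in H2afz the highest 48hr library was replicate 1. H1fx rose by 5.30 on the log2 scale from 0.0681, 0.129 and 0.0301 CPM (5.90 without 0hr replicate 2), and H2afv by 0.53 (SE 0.16, edgeR adjusted p = 0.0205), a call that was lost without 0hr replicate 3 and without 48hr replicate 2 or 3.

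The genes that make and process histone mRNA were examined as a list of 20. Of these, 12 rose, 1 fell and 7 were not called, with a median log2 fold change of 0.48. Slbp, the stem-loop binding protein, measured 3.95, 4.70 and 4.70 CPM at 0 hours and 17.1, 17.7 and 15.5 CPM at 48 hours (log2 fold change 1.91, SE 0.14, edgeR adjusted p = 2.82e-06). Npat, the coactivator that drives the histone clusters when phosphorylated by CDK2, went from 8.99, 11.1 and 9.58 CPM to 20.3, 17.1 and 18.4 CPM (log2 fold change 0.91, SE 0.13), and Casp8ap2, or FLASH, of the cleavage complex, from 6.03, 6.32 and 5.54 CPM to 15.5, 11.5 and 13.6 CPM (log2 fold change 1.18, SE 0.15). Each of these genes was above its 0hr range in every 48hr library. Eri1, an exonuclease that trims and degrades the stem-loop end, rose by 1.55 (SE 0.11), and Zfp473, a zinc finger protein of the cleavage machinery, had the largest change of the list, 2.24 (SE 0.33), at under 2 CPM. Lsm11, of the U7 particle, had 0.50 (SE 0.21, edgeR adjusted p = 0.0766) and was not called, and Lsm10, its partner, had -0.19. Tut7, a terminal uridylyl transferase, was the 1 gene that fell, from 141, 137 and 135 CPM to 94.5, 89.6 and 89.7 CPM (log2 fold change -0.59, SE 0.10).

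Histone chaperones and assembly factors carry new histones to chromatin. Of the 33 listed 21 rose, none fell, and the median log2 fold change was 0.87. The largest change was that of a chaperone that acts at the replication fork. Asf1b, which hands H3 and H4 to the assembly factor CAF-1, measured 0.0681, 0.0967 and 0.211 CPM at 0 hours and 12.7, 11.2 and 10.9 CPM at 48 hours (log2 fold change 6.46, SE 0.28, edgeR adjusted p = 8.71e-08), or 7.06 without 0hr replicate 3. Chaf1a and Chaf1b, the large and the middle subunit of CAF-1, rose by 4.49 (SE 0.16) and 4.46 (SE 0.20), while its small subunit Rbbp4 had -0.05 (SE 0.10) and was not called. Mcm2, a helicase subunit that also binds H3 and H4, rose by 4.40 (SE 0.19). In Chaf1a the 0hr libraries had 1.29, 0.935 and 1.14 CPM and the 48hr libraries 26.8, 24.4 and 24.6 CPM.

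Other chaperones changed less. Hat1, which acetylates new H4, rose by 2.33 (SE 0.14) and Nasp, which stores H3 and H4, by 1.32 (SE 0.17). Hjurp, the chaperone of CENP-A at the centromere, rose by 0.96 (SE 0.12). Hjurp measured 174, 194 and 174 CPM at 0 hours and 351, 380 and 326 CPM at 48 hours. Hira (0.42, SE 0.21) and Daxx (0.08, SE 0.13), which deposit H3.3 outside replication, were not called, as were their partners Ubn1, Ubn2, Cabin1 and Atrx, with log2 fold changes from -0.11 to 0.16. The chaperones that serve replication thus included the largest change, and none of these 6 genes of the H3.3 route passed the test. Asf1a, a relative of Asf1b that was placed in neither group, rose by 0.91 (SE 0.17, edgeR adjusted p = 0.00166). These groups do not cover the whole list, and the difference between them was not itself tested. The counts of these lists stand against the 21.4% of all genes that were higher.

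**Figure D5:**
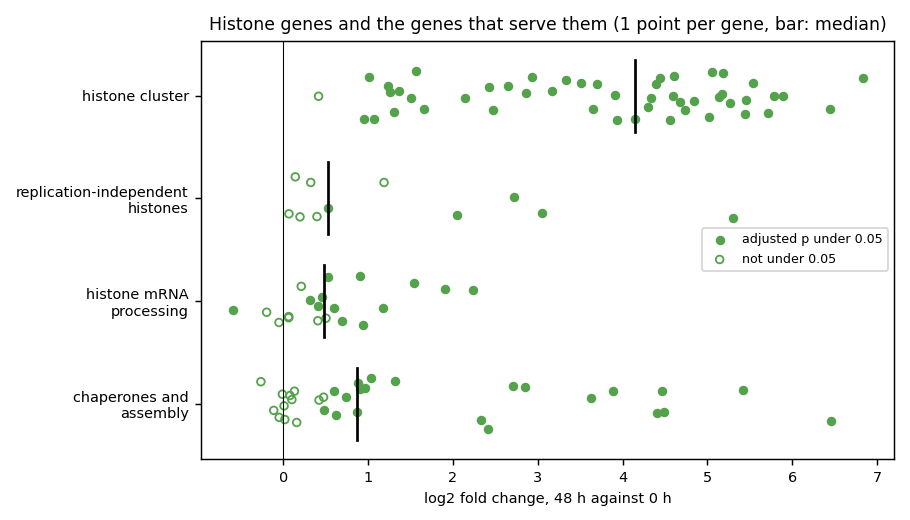
Log2 fold change (48 hours against 0 hours) of each tested gene in 4 lists, filled where the edgeR adjusted p was under 0.05, with a bar at the median. The medians are 4.15 for the histone cluster genes and 0.53, 0.48 and 0.87 for the replication-independent histones, the mRNA processing genes and the chaperones. In the same order, 27 of 49, 9 of 11, 19 of 20 and 30 of 33 tested genes had 10 or more counts in every 0hr library. The other genes passed the count filter through the 48hr libraries, so the medians are not on equal terms.

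Hepatocyte markers were high in every library, at a summed 100858 to 119997 CPM over 8 genes at 0 hours and 62561 to 71729 CPM at 48 hours, with 4 of the 8 lower. The marker counts in this paragraph stand against 19.3% of all genes tested that were lower and 21.4% that were higher. The 7 lymphocyte markers summed to 0.170 to 0.226 CPM at 0 hours and 0.119 to 0.447 CPM at 48 hours. The 4 neutrophil markers summed to 0 to 0.238 CPM and then to 0.208 to 0.771 CPM, with Camp at 2, 3 and 0 counts and then at 6, 19 and 26 counts. No marker of either list passed the count filter. All 8 endothelial markers fell, from sums of 213 to 334 CPM to sums of 158 to 174 CPM, and among 7 stellate markers Col1a1 rose (log2 fold change 2.30) and Reln fell (-0.82). Kupffer cell markers summed to 62.8 to 95.7 CPM at 0 hours and 96.2 to 119 CPM at 48 hours, with 2 of 9 higher, Marco by 3.19 and Cd5l by 0.78 on the log2 scale, and cholangiocyte markers to 9.12 to 20.7 and 16.3 to 26.0 CPM, with 2 tested, of which Spp1 rose (log2 fold change 1.51). Erythroid markers summed to 55.8 to 86.6 CPM and then to 18.7 to 40.4 CPM, nearly all from Alas2, the 1 tested gene of its list, which fell. The part of Kupffer cells, cholangiocytes and other cells of the preparation in the levels of the histone genes was not tested.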

How the data were processed

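RNA was sequenced from 6 libraries, 3 at each time point. According to the submitters' processing notes, reads were checked with FastQC 0.11.5, trimmed with Trim Galore 0.6.4, aligned to mm10 with STAR 2.6 and counted with HTSeq 0.12.4, and DESeq2 was used by the authors. The deposited values are raw counts per gene for each library. The strand setting, the counting mode and the annotation release are not given in the sources used here, and the gene identifiers matched GENCODE M21 (GRCm38), which supplied the names. Lines that name no gene stayed out of library sizes and tests. Reads on no annotated feature were 24.3% to 32.7% of all listed reads, and ambiguous reads 4.27% to 5.29%.

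Counts were normalized by TMM in edgeR 4.0.16 (R 4.3.3), a gene was kept when 3 or more libraries held 10 counts or more of it (17037 genes), and time points were compared with the quasi-likelihood test, all p-values being adjusted over all genes tested by the Benjamini-Hochberg method (threshold 0.05). CPM are counts scaled to a common library total with TMM factors. Alternatives were DESeq2 1.42.0, limma 3.58.1 (voom), DESeq2 size factors, library sizes alone, no filter, a filter on the mean, a replicate block and leaving out each library in turn with the same genes tested. On simulated counts for the comparison of time points over 16715 genes, 95% of 200 genes changed 4-fold were recovered. Count ratios of members with 1 to 3 counts at 0 hours have exact 95% intervals from the binomial distribution. With 31419443 to 36346220 gene counts per library, a floor of 3 counts is 0.0825 to 0.0955 CPM before TMM scaling, and intervals and floors cover counting error only.

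Stem-loops were matched in the GENCODE M21 transcripts, and promoters came from RefSeq (GRCm38.p6). Genes were named by a fixed rule: the 3 highest per kilobase in each class, every H1 gene, the 5 largest changes in each direction (no member fell), every replication-independent histone gene, 15 genes of the processing and chaperone lists, and the largest changes of each list. One gene of this rule is not reported here. Other named members were chosen after their values were seen. The members and lists were chosen with earlier results of these data known. Replicate numbers did not pair the libraries, since deviations from the group means correlated at 0.0335, -0.0674 and -0.138 for replicates 1, 2 and 3.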

Additional observations from a re-analysis of the deposited data

How the results depend on the processing

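DESeq2 and voom called 48 histone cluster genes higher, library size scaling 49, no filter 53 and the filter on the mean 47, and none was lower in any of them. Leaving out each library in turn gave 45 to 47 higher, with a median log2 fold change of 3.91 to 4.35 and a log2 ratio of summed CPM of 1.93 to 2.33 (2.17 with all libraries). With the replicate block 48 were higher, with a median of 4.14, and the numbers do not pair the libraries. Of the 48 members called, 44 passed under every alternative that tested them (the filter on the mean left out Hist1h2af), and Hist1h1e, Hist3h2a, Hist2h3c2 and Hist1h4n did not. Replication-independent histones called were 4 to 6 without 1 library, against 5. Hist1h4n lost its call without 48hr replicate 2 (edgeR adjusted p = 0.0554). Library size scaling moved the median of all genes to 0.20 and the share of all genes called higher from 21.4% to 31.2%. Among the genes named by the fixed rule, it also called Hist1h2bc, H2afj, H3f3b, Hira and Lsm11. H3f3b passed without the filter and without 48hr replicate 3 too, and H2afy2 without 0hr replicate 1. Daxx changed sign without 0hr replicate 2, its log2 fold change ranging from -0.0075 to 0.16 over the left-out libraries, and the cause was not tested. Members at 0 to 3 counts are limited by depth, with fold changes that carry wide counting intervals.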

Other observations

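Histone genes annotated as pseudogenes stayed outside the members. Hist3h2bb-ps had 1, 0 and 1 counts at 0 hours and 4, 9 and 4 counts at 48 hours, and Hist1h2aj and Hist1h2al reached 1 count in 1 library each. Antisense RNAs annotated across the Hist2 cluster differed among themselves. Gm20632 had 119, 68 and 128 counts at 0 hours and 94, 129 and 88 counts at 48 hours, whereas Gm20628, which covers all exon bases of Hist2h3b and Hist2h2bb, had 4, 9 and 5 counts and then 18, 39 and 27 counts. Without a stated strand setting, reads of these RNAs and of the histone genes opposite to them cannot be told apart. Gm20628 was again highest in 48hr replicate 2.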
